A study of Homo sapiens with 5 samples.

Results

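In small RNA libraries of MCF10A cells, 250 names of human piRNAs were detected, out of 23438 piRNA names and 49965 names in all. A piRNA name counted as detected when it had a raw count of 10 or more in at least 2 of the 5 libraries. The members were thus chosen by their counts in the same libraries that are compared here. MCF10A is an immortalized, non-tumorigenic line of human mammary epithelium, so all libraries come from a single line. The attached group (3 libraries) was grown on uncoated plastic and the detached group (2 libraries) on plastic coated with 2% poly-HEMA, to which cells do not adhere. Both groups shared a DMEM/F12 medium with horse serum, epidermal growth factor, insulin, cholera toxin, hydrocortisone, penicillin and streptomycin. Detached cells had been in culture for 24 h. For the attached cells the time label reads 0 h and the design text 24 h. Nothing in the labels tells whether the replicates are independent cultures, so a p-value here reflects the spread among libraries, possibly technical, and no more.

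PIWI-interacting RNAs (piRNAs) are small RNAs that guide proteins of the PIWI clade of the Argonaute family. Their best known role is in the germline, where they direct the silencing of transposons, and they are made from long single-stranded precursors without the enzyme Dicer. Mature piRNAs are somewhat longer than miRNAs. Here RNAs of 18 to 24 nt were size-selected, below the usual length of a mature piRNA, so a count under a piRNA name is a read of miRNA size assigned to that name. Catalogues of piRNAs also hold entries that coincide in sequence with fragments of tRNAs, snoRNAs and other abundant structured RNAs. Whether this applies to the names below was not tested, and the sequences behind the names were not used here.

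The libraries held 8945953 to 16008489 counts over all names, of which human miRNAs took 97.1% to 98.7%. Levels are given in CPM, the counts of a name per 1000000 counts over all names in a library, and 3 counts, used as the floor, equal 0.187 to 0.335 CPM. Floors and intervals cover counting error only. The epithelial label was checked with 7 miRNAs of mammary and other epithelia, among them miR-205-5p and the miR-200 family. All 7 were present, with a summed level of 41747 to 96225 CPM in attached and 86246 to 118032 CPM in detached libraries. The lowest sum was that of attached replicate 2, where miR-205-5p stood at 16809 CPM (51710 to 79969 CPM elsewhere), miR-200c-3p at 1718 CPM (12006 to 18067 elsewhere) and miR-31-5p at 804 CPM (2343 to 4486 elsewhere). The level of miR-200b-3p was also lowest there, at 112 CPM (253 to 674 elsewhere). By contrast, miR-141-3p was highest there, at 21616.5 CPM (12706 to 18507 elsewhere). For miR-200a-3p and miR-429 this library lay within the range of the others. Of 15 miRNAs typical of germ cells or pluripotent cells 9 had any count, none above 17 counts in a library, and miR-302a-3p, miR-302b-3p, miR-302c-3p, miR-302d-3p, miR-371a-3p and miR-513a-5p were at 0. Their summed level was 0.782 to 3.15 CPM in attached and 2.03 to 3.81 CPM in detached libraries. The 4 blood-cell miRNAs (1.23 to 15.5 attached, 17.4 and 17.6 CPM detached) and the 4 mesenchymal ones (3.72 to 11.5 attached, 17.0 and 56.7 CPM detached) were low but higher in both detached libraries, and their part in the results below was not tested. Attached replicate 2 also stood apart in its piRNA names, and the comparisons below are therefore given with and without it. Across the 250 piRNA names its Spearman correlation with the other libraries was 0.642 to 0.6974, and that among the other libraries 0.6972 to 0.859, so the ranges just overlapped.

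The 250 names together took 9888, 8714 and 8015 CPM in the attached libraries (replicates 1 to 3) and 7829 and 14531 CPM in the detached ones (replicates 1 and 2). The groups overlapped, since detached replicate 1 held the lowest and detached replicate 2 the highest level of all. Attached libraries averaged 8873 ± 946 CPM (SD, n = 3) and detached ones 11180 ± 4739 CPM (SD, n = 2), a ratio of 1.26, or 1.25 without attached replicate 2. Without detached replicate 2 the ratio was 0.882, and without detached replicate 1 it was 1.64. In a bulk library, more RNA per cell and a larger share of cells with the RNA cannot be told apart. Of 5 other classes of structured RNA, 4 were also highest in detached replicate 2. Names of C/D box snoRNAs (SNORD), which guide methylation of rRNA, stood at 2872 CPM in detached replicate 2 and at 1311 to 2186 CPM in the other libraries. Spliceosomal snRNA names (RNU) stood at 1201 and at 324 to 417 CPM. 5S rRNA names were higher in both detached libraries, at 157 and 328 CPM against 40.1 to 62.6 CPM in attached ones, as were the 3 names of Cajal body RNAs (SCARNA), at 10.7 and 13.1 against 0.894 to 3.40 CPM. H/ACA box snoRNA names (SNORA), which guide pseudouridylation of rRNA, were instead highest in attached replicate 2, at 539 CPM against 88.0 and 203 CPM in the other attached and 146 and 317 CPM in the detached libraries. The part of these classes in the piRNA results was not tested.

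**Figure D1:**
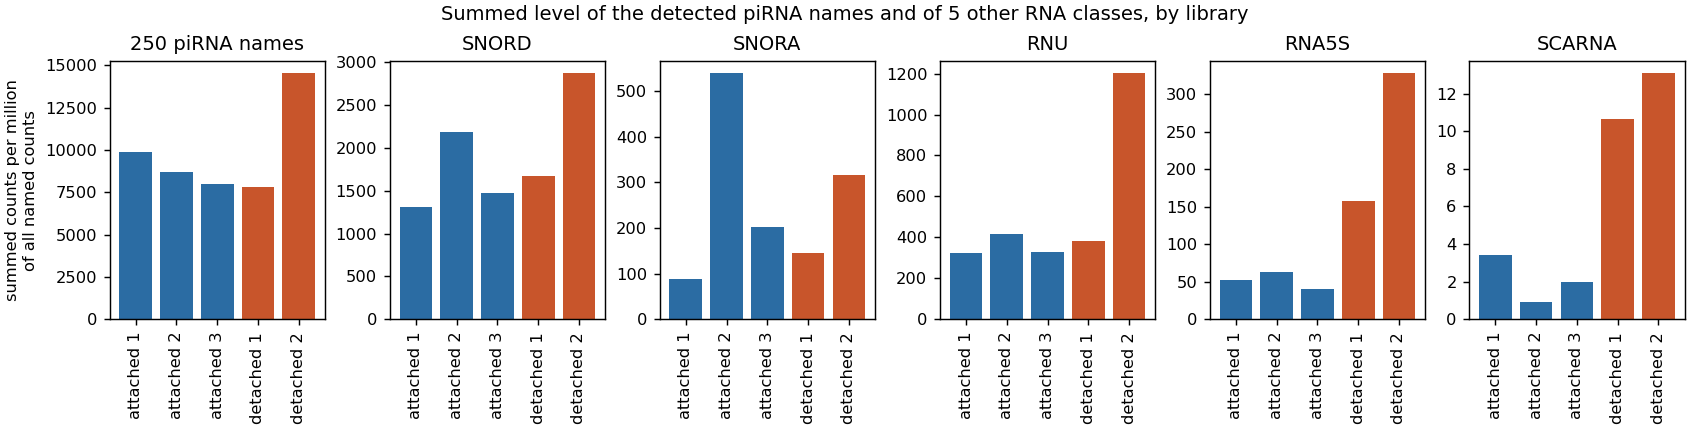
Summed CPM in each library (bars, blue attached, orange detached), for the 250 piRNA names and for 5 other RNA classes. Detached replicate 2 was the highest library in every panel but that of SNORA, where attached replicate 2 was (539 CPM), and for the piRNA names detached replicate 1 was the lowest, at 7829 CPM.

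A few names carried most of the counts, and the 30 most abundant held 83.8% to 87.3% of them in each library. The mean level over the 5 libraries ran from 0.309 to 861 CPM, with a median of 2.44. Only 22 names exceeded 100 CPM, 49 lay between 10 and 100, 128 between 1 and 10, and 51 below 1. The 12 most abundant names held 54.8%, 74.3% and 45.5% of the counts of all 250 in the attached libraries and 69.1% and 54.6% in the detached ones. The leading name was not the same from library to library. It was hsa_piR_020828 in attached replicate 1 and detached replicate 2 (12.3% and 10.5% of the 250), hsa_piR_021214 in attached replicate 2 (25.4%), hsa_piR_000823 in attached replicate 3 (6.78%, named after its values were seen) and hsa_piR_010894 in detached replicate 1 (16.8%). Of the 250 names 215 had a count in every library and 117 had 10 or more in every library.

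Among the 12 most abundant names, 8 had attached and detached libraries that overlapped. hsa_piR_010894, the highest on average, stood at 601, 1201 and 542 CPM in attached libraries and at 1317 and 646 CPM in detached ones. hsa_piR_021214 stood at 182, 2212 and 397 CPM in attached libraries and at 186 and 287 CPM in detached ones. Its mean rank therefore came from attached replicate 2, which was 5.57 times above the next library. hsa_piR_020828 showed the reverse, with 10.8 CPM in attached replicate 2, against 1213 and 68.2 in the other attached and 185 and 1530 in the detached libraries. Its levels spread 141-fold, and both groups held a high and a low library. hsa_piR_018570 (344, 853 and 531 attached, 290 and 518 CPM detached) and hsa_piR_020541 (330, 639 and 304 attached, 307 and 837 CPM detached) varied less. hsa_piR_016735 stood at 595, 167 and 332 CPM in attached libraries and at 273 and 834 CPM in detached ones. hsa_piR_014620 was the steadiest of these, at 337, 363 and 235 CPM attached and 490 and 321 CPM detached. hsa_piR_020388 measured 632, 54.9 and 393 CPM attached and 129 and 475 CPM detached. For these 8 names the log2 fold change between groups ranged from -2.33 (SE 1.15, hsa_piR_021214) to 0.52 (SE 1.59, hsa_piR_020828), and edgeR's adjusted p was at least 0.627.

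The other 4 of the 12 had groups that did not overlap. hsa_piR_009502 stood at 418, 60.0 and 142 CPM in attached libraries and at 839 and 1389 CPM in detached ones, and edgeR put the log2 fold change at 2.13 (SE 0.85, adjusted p 0.508). hsa_piR_001356 stood at 108, 280 and 29.6 CPM in attached libraries and at 827 and 399 CPM in detached ones, and edgeR put the log2 fold change at 1.91 (SE 1.00, adjusted p 0.649), or at 3.02 (SE 0.88) without attached replicate 2. hsa_piR_016658 stood at 209, 185 and 336 CPM in attached libraries and at 476 and 546 CPM in detached ones, with a smaller log2 fold change, 0.85 (SE 0.60). These 3 names were higher in both detached libraries. hsa_piR_020499 was lower there, at 90.9 and 145 CPM against 450, 445 and 336 CPM in attached libraries, and edgeR put the log2 fold change at -2.10 (SE 0.67, adjusted p 0.386). In edgeR none of the 4 passed the threshold of an adjusted p under 0.05, with or without attached replicate 2. Without that library DESeq2, and edgeR without the filter on low counts, called hsa_piR_001356 higher and hsa_piR_020499 lower.

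**Figure D2:**
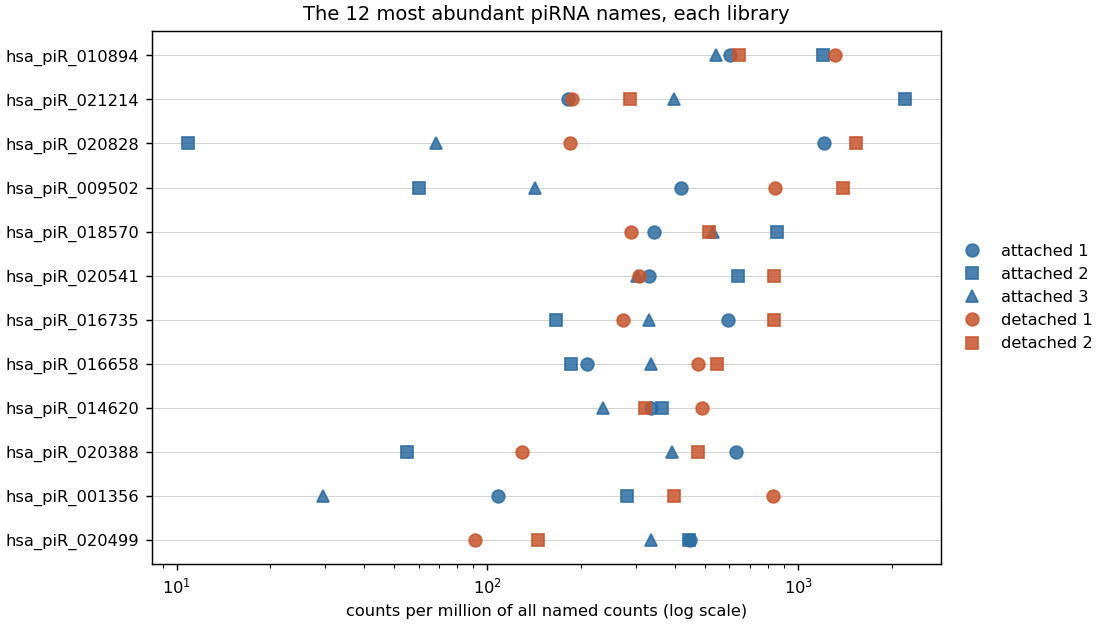
Level of the 12 most abundant piRNA names in each library, in CPM on a log scale (blue attached, orange detached, symbols mark the replicate). Both detached points lie right of all attached points for hsa_piR_009502, hsa_piR_016658 and hsa_piR_001356 and left of them for hsa_piR_020499, and attached replicate 2 is the lowest point for hsa_piR_020828 (10.8) and the highest for hsa_piR_021214 (2212).

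Attached replicate 2 stood apart for many other names. It had 0 counts for 27 names, 11 of which had 10 or more in both other attached libraries. Among them is hsa_piR_004308, with 110 and 149 counts in attached replicates 1 and 3, 116 and 127 in the detached libraries and 0 in attached replicate 2. A further 5 names, chosen like the others of this paragraph after their values were seen, had a count there at least 10 times below every other library in CPM. For hsa_piR_003380 attached replicate 2 held 0.224 CPM, against 17.4 and 9.93 in the other attached and 47.7 and 76.7 in the detached libraries, the widest range among names with a count everywhere (343-fold). The other 4 were hsa_piR_016440, hsa_piR_004309, hsa_piR_012684 and hsa_piR_019822, for which the next lowest library was 12.3 to 32.4 times higher. At least 3 times below every other library lay 18 names with a count there, and 6 names were at least 3 times above every other library. They include hsa_piR_013622, at 45.8 CPM against 0.728 to 8.75 CPM elsewhere, and hsa_piR_017033, at 42.3 against 4.69 to 12.4 CPM. Among the 215 names with a count in every library, the highest library exceeded the lowest by a median of 6.08-fold, and 60 names exceeded 10-fold. For the 679 human miRNAs with the same minimum and a count in every library, the median was 4.30-fold, and 149 exceeded 10-fold.

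The groups were then compared by edgeR's quasi-likelihood test on the raw counts of all names. After the filter on low counts 1159 names were tested, and 229 of the 250 piRNA names were among them. With all 5 libraries edgeR called 0 piRNA names higher and 0 lower at an adjusted p under 0.05, as it did over all tested names (0.0% in each direction). At an unadjusted p under 0.05 there were 28 piRNA names higher and 6 lower of 229, beside 6.64% higher and 2.16% lower of all names tested. DESeq2 called 8 piRNA names higher and 2 lower, and limma-voom called 0. Over all 2192 names with a DESeq2 adjusted p, 21 (0.958%) were called higher and 5 (0.228%) lower. The log2 fold change was positive for 138 of the 229 names and had a median of 0.20, beside a median of 0.04 over all tested names. Scaling by library totals in place of TMM factors shifted the median of all tested names to 0.30 and that of the piRNA names to 0.46.

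Without attached replicate 2, edgeR called 4 piRNA names higher and 0 lower of 217 tested, beside 0.892% higher and 0.0% lower of all names tested. At an unadjusted p under 0.05 there were 55 higher and 9 lower, beside 11.8% and 2.94% of all names tested. The 4 were hsa_piR_018980, hsa_piR_020182, hsa_piR_012670 and hsa_piR_012510. The median log2 fold change of the piRNA names was 0.60 in this fit, beside 0.02 over all tested names. The library left out was picked for its deviation in these same data, and with its loss the common biological coefficient of variation estimated by edgeR went from 0.661 to 0.465. Leaving out any other library gave 0 calls among the piRNA names.

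**Figure D3:**
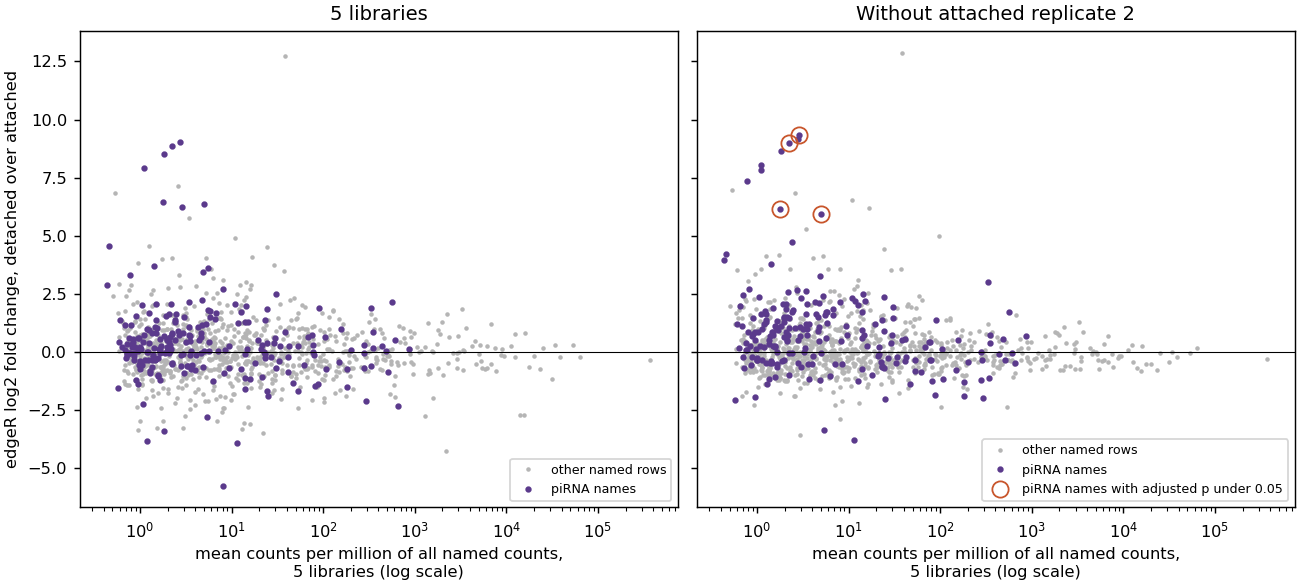
edgeR log2 fold change, detached over attached, against the mean level over 5 libraries (log scale), for piRNA names (purple) and all other tested names (grey), with all 5 libraries (left) and without attached replicate 2 (right). Circles mark the 4 piRNA names with an adjusted p under 0.05, all from names scarce in attached libraries, and the left panel has none. For names at 0 in all attached libraries the fitted value depends on the prior count and is no bound.

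The rule for detection bears on these counts. Of the 250 names 208 reached 10 counts in at least 1 library of each group, 36 only in detached and 6 only in attached libraries. The 36 entered through their detached counts alone and the 6 through their attached counts alone, so the rule bears on their direction. In CPM, 33 of the 36 lay above all attached libraries. All 4 names called without attached replicate 2 belong to the 36. Detached libraries lay above all attached ones, in CPM, for 59 of the 229 tested piRNA names and below for 11, beside 20.9% above and 7.25% below over all tested names. Without attached replicate 2 this was 108 above and 18 below of 217, beside 30.7% and 12.8%. Of the 208 names that reached 10 counts in both groups, 39 (18.8%) lay above and 10 (4.81%) below with all 5 libraries, beside the 20.9% and 7.25% over all tested names. Unlike the 208, all tested names include some that reached 10 counts in a single group, here and in the next comparison. Without attached replicate 2, 93 of the 208 (44.7%) lay above and 17 (8.17%) below, beside the 30.7% and 12.8% over all tested names. The 208 were set with attached replicate 2 included, so names that reached 10 attached counts only in that library stayed among them. These names tend to lie above once it is left out, and the shares are therefore not like for like. Of the 208 names, 202 were tested with all 5 libraries. Reaching 10 counts in both groups is itself decided by the compared counts, and the difference between these shares was not tested.

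The names that were nearly absent from attached libraries had the largest fitted differences. They could enter only with 10 or more counts in both detached libraries, so the rule set their direction and their values are description. A count of 0 in all attached libraries was found for 7 names. hsa_piR_020182 was at 0 in every attached library and at 81 and 65 counts in the detached ones, at least 19.2-fold higher than a floor of 3 counts per library. It rose in the fit without attached replicate 2 (edgeR adjusted p 0.0315), and its adjusted p was 0.0568 with all libraries. hsa_piR_002574 had 28 and 131 detached counts (at least 24.0-fold higher), so detached replicate 2 held most of it. hsa_piR_010675 had 38 and 74 (at least 15.95-fold) and hsa_piR_004327 43 and 31 (at least 9.62-fold). Their edgeR adjusted p ranged from 0.0758 to 0.0951 with all libraries. The other 3 were hsa_piR_016627 (14 and 50 counts), hsa_piR_005091 (13 and 11) and hsa_piR_011597 (10 and 10), which the filter removed with all libraries.

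A further group had few but not 0 attached counts, and the rule set its direction in the same way. hsa_piR_012670 had attached counts of 1, 0 and 3 and detached counts of 236 and 104, or 0.122 ± 0.148 CPM (SD, n = 3) against 12.2 ± 3.65 CPM (SD, n = 2). It was the most abundant name of this kind, and edgeR put its log2 fold change at 6.36 (SE 1.02, adjusted p 0.0568) with all libraries. It rose in the fit without attached replicate 2, where edgeR gave 5.92 (SE 0.81, adjusted p 0.0330). hsa_piR_018980 had attached counts of 0, 2 and 0 and detached counts of 90 and 93. The ratio of the pooled CPM was 108 (95% exact interval 29.6 to 901), with an edgeR adjusted p of 0.0758 with all libraries and of 0.0276 without attached replicate 2, which held both attached counts. hsa_piR_012510 had attached counts of 1, 0 and 0 and detached counts of 50 and 62, a ratio of 132 (95% exact interval 23.3 to 5282), with an edgeR adjusted p of 0.0568 with all libraries and of 0.0429 without attached replicate 2. Both detached libraries exceeded every attached one in each of these 3 names.

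**Figure D4:**
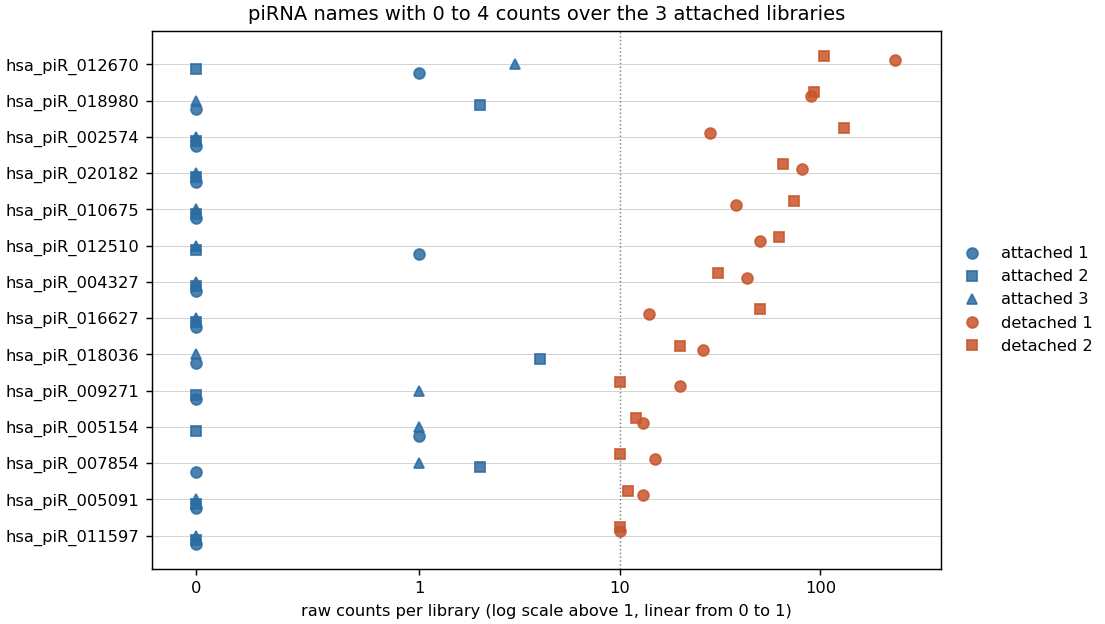
Raw counts per library of the 14 piRNA names with 0 to 4 counts over the 3 attached libraries (log scale above 1, linear from 0 to 1; blue attached, orange detached, symbols mark the replicate, dotted line at the detection minimum of 10). All detached points lie at 10 or more and all attached points at 4 or less, which for these names the rule requires of the detached libraries, and hsa_piR_012670 reaches the highest count, 236.

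More abundant names that were higher in both detached libraries, named after their values were seen, showed smaller folds. hsa_piR_001184 stood at 6.87, 14.9 and 7.45 CPM in attached libraries and at 24.0 and 67.5 CPM in detached ones. hsa_piR_005799 stood at 5.98, 8.61 and 2.29 CPM in attached libraries and at 23.2 and 32.2 CPM in detached ones. hsa_piR_011188 stood at 4.77, 5.14 and 2.39 CPM in attached libraries and at 15.9 and 26.7 CPM in detached ones. In all 3 the lower detached library exceeded the highest attached one, and their log2 fold changes with all libraries were 1.85 (SE 0.73), 1.97 (SE 0.76) and 2.05 (SE 0.68), with edgeR adjusted p of 0.421 to 0.489. hsa_piR_023338 (5.98, 7.49 and 3.53 attached, 18.3 and 28.4 CPM detached) and hsa_piR_020008 (2.83, 3.47 and 2.86 attached, 9.12 and 15.1 CPM detached) had the same order. Over all 72 names in this order, 64 had their highest level in detached replicate 2, where the highest library must be a detached one. For the 65 of them with any attached count the ratio of group means ran upward from 1.61, with a median of 3.54. The 72 were picked for this order, so the direction of the ratio was fixed in advance. Of the 72, 33 reached 10 counts only in detached libraries. Among tested piRNA names 59 of 229 (25.8%) had this order, beside 20.9% of all tested names.

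Only 11 names lay below every attached library in both detached ones, and edgeR with the filter on low counts called none of them in either fit. hsa_piR_016945 had attached counts of 321, 177 and 81 and detached counts of 10 and 28, or 17.8 ± 9.27 CPM (SD, n = 3) against 1.60 ± 1.38 CPM (SD, n = 2). Its log2 fold change was -3.90 (SE 0.98, edgeR adjusted p 0.178), and -3.76 (SE 0.87, edgeR adjusted p 0.131) without attached replicate 2. hsa_piR_020498 stood at 46.3, 23.4 and 32.3 CPM in attached libraries and at 10.1 and 11.98 CPM in detached ones, with a log2 fold change (-1.87, SE 0.70) close to that of the more abundant hsa_piR_020499 described above. hsa_piR_003703 stood at 38.2, 127 and 48.7 CPM in attached libraries and at 31.6 and 21.3 CPM in detached ones, and without the high attached replicate 2 its log2 fold change went from -1.66 (SE 0.87) to -0.83 (SE 0.54). hsa_piR_021875 had attached counts of 3, 40 and 10 and detached counts of 2 and 2, so most of its counts also came from attached replicate 2. DESeq2 called hsa_piR_016945 (adjusted p 0.00326) and hsa_piR_006634 lower. The latter, named after its values were seen, had attached counts of 3, 72 and 328 and detached counts of 7 and 0, and its groups overlapped. Both hsa_piR_021875 and hsa_piR_006634 reached 10 counts only in attached libraries, so the rule for detection bears on their direction.

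**Figure D5:**
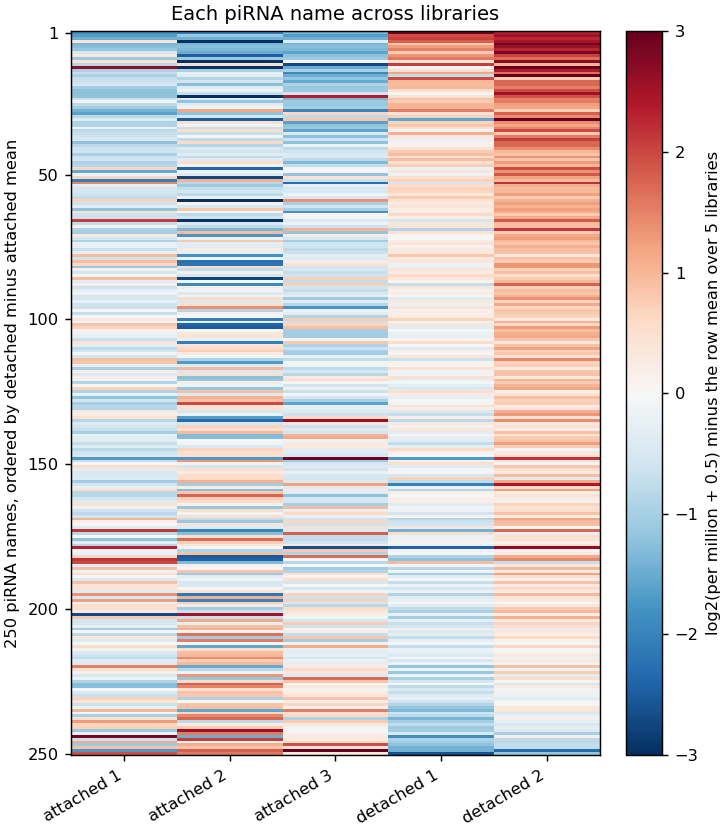
Each of the 250 piRNA names (rows) across the 5 libraries (columns), as log2(CPM + 0.5) minus the mean of the row, ordered by the difference between detached and attached means. The attached replicate 2 column holds both low and high values, and detached replicate 2 is the highest library for 130 names (52%). Among human miRNAs with the same minimum it is the highest library for 263 (36.0%).

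Split by mean level, the 71 tested piRNA names over 10 CPM had a median log2 fold change of 0.04, with detached libraries above all attached ones in 12 (16.9%). The 427 other tested names of that level had a median of -0.05, with 18.0% above. The 124 piRNA names between 1 and 10 CPM had a median of 0.35, with 39 (31.5%) above, beside 0.04 and 20.4% for the 412 other names. The 34 below 1 CPM had a median of 0.21, with 8 (23.5%) above, beside 0.01 and 24.2% for the other 91. Differences between these shares were not tested.

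Some detected names had consecutive numbers. Of the 250 names 25 (10%) had a detected neighbour at the next number up or down, in 12 runs of at most 3 names. Over all piRNA names 1.07 per 100 were detected. That share holds for a single number, while the 10% looks at the numbers on either side, so the shares are not like for like. What the order of the numbers stands for is not given in the sources used here, and no 2 detected names had the same counts in all libraries. The 4 pairs named next were chosen after their values were seen. hsa_piR_020498 and hsa_piR_020499 were both lower in detached libraries, as were hsa_piR_016945 and hsa_piR_016946, the latter with attached counts of 875, 462 and 593 and detached counts of 410 and 340. hsa_piR_004308 and hsa_piR_004309 were both low in attached replicate 2, with 0 and 3 counts, and had 92 to 149 counts in the other libraries. Other neighbours differed: hsa_piR_016658 was higher and hsa_piR_016659, with 46, 51 and 44 attached and 43 and 40 detached counts, lower in CPM in both detached libraries. In 8 of the 12 runs all log2 fold changes had the same sign, and in 4 runs the levels differed 5-fold or more. With 60.3% of all tested piRNA names positive, many unrelated names also share a sign, and whether neighbours do so more often was not tested.

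Below the detection minimum lay nearly all piRNA names. A count of 0 in all libraries was found for 17312 names, and 6126 had any count, of which 5615 had 1 to 9 counts in total. The 250 detected names held 96.0% to 98.1% of all piRNA counts in each library. Just inside the minimum were hsa_piR_011597 and hsa_piR_005091, with 20 and 24 counts in total, all in detached libraries. Just outside were 105 names with 10 or more counts in a single library. The highest of these in total counts were hsa_piR_010089, with 536 of its 550 counts in attached replicate 2, and hsa_piR_013359, with 0 attached and 9 and 199 detached counts.

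The authors' deposited table holds a separate comparison of detached with attached cells for the same libraries. Of the 250 names 8 were higher and 1 lower at an adjusted p under 0.05, in the authors' deposited table, beside 0.568% higher and 0.0334% lower of all 2991 names with an adjusted p. The 8 were hsa_piR_012670, hsa_piR_020182, hsa_piR_002574, hsa_piR_018980, hsa_piR_010675, hsa_piR_012510, hsa_piR_004327 and hsa_piR_016627, all from the names with 0 to 4 attached counts, and the name lower was hsa_piR_016945. In the authors' deposited table hsa_piR_012670 has a log2 fold change of 5.21 (SE 0.91, adjusted p 3.35e-05) and hsa_piR_016945 one of -3.41 (SE 0.81, adjusted p 0.00617). The 4 names that rose in the edgeR fit without attached replicate 2 are all among those 8. Both comparisons rest on the same counts, so this overlap is no independent evidence. All 8 entered through their detached counts alone, so the rule for detection set their direction.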

How the data were processed

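Small RNAs of 5 MCF10A libraries, 3 attached and 2 detached, were analysed from the deposited raw read counts per name, grouped by their titles. The submitters' processing notes name DESeq2 and hg38 without role. Not given in the sources used here are the aligner, the counter and how reads matching several names were treated, so reads shared by similar names are uncertain. The deposited table of the authors' comparison gives log2 fold changes and their errors, the score of the test and p-values before and after adjustment. The signal values deposited there per library are, from their steps, the authors' counts divided by size factors. All of those signal values (100%) came out as whole reads within 0.01 and equalled the raw counts, and edgeR on them called 0 piRNA names. The 5 summary rows of each table hold 0.

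The test was edgeR 4.0.16 under R 4.3.3 (TMM factors of 0.859 to 1.32, two-sided quasi-likelihood F test, Benjamini-Hochberg over all tested names) after filterByExpr. Its minimum count of 10 acts as a CPM cutoff, the level that 10 counts make in a library of median size. Its minimum total was 15 counts. Library size was the total of all names. Each SE is the size of the log2 fold change over the root of its F. Printed levels carry no TMM scaling. The edgeR step was tested on simulated data. DESeq2 1.42.0, limma-voom 3.58.1, other scalings and filters, a replicate block and leaving out libraries were the alternatives. No replicate pair looked like a library deposited again (chi-square over its degrees of freedom at least 148). Names described were the 12 most abundant, any called by edgeR in either fit, the 5 largest fold changes per direction among separated groups, and those at the detection minimum. Members and lists were chosen with earlier results of these data known.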

Additional observations from a re-analysis of the deposited data

How the results depend on the processing

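With all 5 libraries the number of piRNA names called was 0 by edgeR, limma-voom, library totals, a minimum count of 50, collapsed identical names and recovered reads. It moved to 10 with DESeq2, 3 with RLE size factors, 11 without the filter and 7 with the replicate block. In the settings with 0 calls, 0 of all tested names were called as well. Calls over all names were 21 higher and 5 lower of 2192 with DESeq2, 6 higher of 1159 with RLE and 10 higher of 1159 with the block. Without the filter they were 31 higher and 18 lower of 9771. Leaving out 1 library gave 0 to 4 calls, the 4 without attached replicate 2. Where a detached library was left out, the other was assumed to vary like the attached ones. The replicate block used only a shared number: deviations of same-numbered libraries correlated at -0.153 and -0.104 over 1159 names. Without attached replicate 2, calls moved from 4 to 20 with DESeq2 and 22 without the filter, with 5 under library totals, each including the 4. Over all names these fits called 36 higher and 8 lower with DESeq2, and 10 higher of 1121 under library totals. Without the filter 56 were called higher and 35 lower of 9024. The block could not be fitted without attached replicate 2 (0 residual degrees of freedom). The ratio of summed levels kept within the spread of the detached libraries, at 1.01 (TMM) to 1.27 over denominators and members. Names with detached libraries above all attached ones numbered 72, with 77 to 138 when 1 library was left out (128 without attached replicate 2, 138 without detached replicate 1), and those below 11, with 12 to 29 (19 without attached replicate 1 or 2, 29 without detached replicate 2), where fewer libraries must be separated. Over all 1159 tested names 20.9% lay above with 5 libraries, and 24.2% to 46.5% with 1 left out, the most without detached replicate 1. Below lay 7.25%, and 8.89% to 20.0% with 1 left out, the most without detached replicate 2.

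Of 23 described names 6, all abundant and uncalled, changed sign in 21 fits, and 30 other fits of described names passed the threshold. hsa_piR_010894 gave -0.018 (minimum count 50), -0.21 (block) and -0.81 to 0.73 with 1 library left out. hsa_piR_020828 gave -1.28 (without detached replicate 2) to 4.11 (without attached replicate 1). hsa_piR_020541 gave -0.14 (RLE), -0.11 (minimum count 50), -0.19 (block) and -0.49 to 0.56 with 1 library left out. hsa_piR_016735 gave -0.43 to 0.84 and hsa_piR_014620 -0.48 to 0.63 with 1 library left out, the latter -0.15 with the block. hsa_piR_020388 gave 0.081 (block) and -1.47 to 0.17 with 1 library left out. The cause was not tested.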
